A study of Drosophila melanogaster with 11 samples.

Results

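In fly embryos the protein Smaug binds short stem-loops in certain mRNAs through a sterile alpha motif domain, and the mRNAs bound are held back from translation or broken down. The early embryo runs on mRNAs loaded into the egg by the mother, so that a large part of gene control at this stage acts on the stability and translation of mRNAs already present. RNA co-immunoprecipitation (RIP) uses an antibody to bring down a protein with the mRNAs attached to it. The mRNAs recovered also include some that stick to the beads or to the antibody, and an abundant mRNA can be carried over in this way. How far the RIP repeats the order of abundance of the extract is therefore a basic property of such an experiment.

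The Smaug RIPs were compared with the input RNA of the extract from which RIPs are made, on 7 of the 11 arrays of the series, namely 4 Smaug RIP arrays and 3 input arrays. The 4 control RIP arrays served only to show where the Smaug RIPs differed. Every array came from wild-type embryos aged 0 to 3 hours and kept at 25 °C, which carried no transgene and received no treatment. The sample labels give the strain as Oregon-R, while the study's methods name w1118. The Smaug RIP used a guinea pig antibody against Smaug, and the control RIP used normal guinea pig serum. Both RIPs were made as 3 biological replicates, of which replicate 1 was measured on 2 arrays (1a and 1b), averaged here. The 3 input arrays are labelled as technical replicates of a reference RNA and were taken as such. The study's supplementary notes call its numbered replicates biological and make no exception for the input. All 4 Smaug RIP arrays were labelled with Cy5 and all 3 input arrays with Cy3, so that dye and kind of RNA cannot be told apart. Image names, read as slide and position, place the 3 inputs on the slide of Smaug RIP 2 and control RIP 2, with Smaug RIP 2 and input 1 as the 2 channels of 1 array. They place control RIP 2 on an array with input 2. Smaug and control replicates of like number share a slide by the same reading, and Smaug RIP 3 and control RIP 3 are the 2 channels of 1 array. The sources used here do not spell out this reading.

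Signals were deposited for 15433 transcripts per array, each from 1 to 5 probes. Of these, the 7716 whose mean log2 signal in the input exceeded the array-wide median were kept. Because input and RIP arrays differed in spread, each transcript was given its percentile rank among the 7716 within each array, where 0 is the lowest and 100 the highest signal. The 7716 transcripts were also divided into 10 equal groups (deciles) by mean input signal. Fewer transcripts of a gene recovered and a weaker hybridization of that gene's cDNA cannot be told apart on such arrays, and a rank says nothing of the total amount of RNA brought down. The files name transcripts by FlyBase identifier only. A single gene symbol was found for 16 of the 7716, so that most results are given as counts, and markers of the embryo, nanos and Hsp83 were not analysed here.

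The order of the input was kept in the Smaug RIP chiefly at its upper end. The most abundant decile of input had median percentile ranks of 90.9, 90.8 and 91.5 in Smaug RIP replicates 1, 2 and 3 (mean 91.1 ± 0.365, SD, n = 3), against 95.0 in the input itself. The decile next below it fell to 72.6, 66.2 and 65.9, against 85.0 in the input. From there the curve was shallow, and the 8th decile had a mean of 57.1 ± 1.43 (SD, n = 3) and the 5th one of 43.5 ± 2.69 (SD, n = 3). The 3 least abundant deciles, with input ranks of 5.86, 14.9 and 24.8, lay at 32.0 ± 6.80, 33.4 ± 4.32 and 36.4 ± 1.54 (SD, n = 3). Within replicate 1 the medians of these deciles rose, from 24.3 to 28.4 and 34.7. They changed little in replicate 2 (35.0, 35.8 and 37.3) and in replicate 3 (36.9, 36.0 and 37.4). The deciles were formed on the mean of the same 3 input arrays, so the straight line of the input follows from how they were made.

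**Figure D1:**
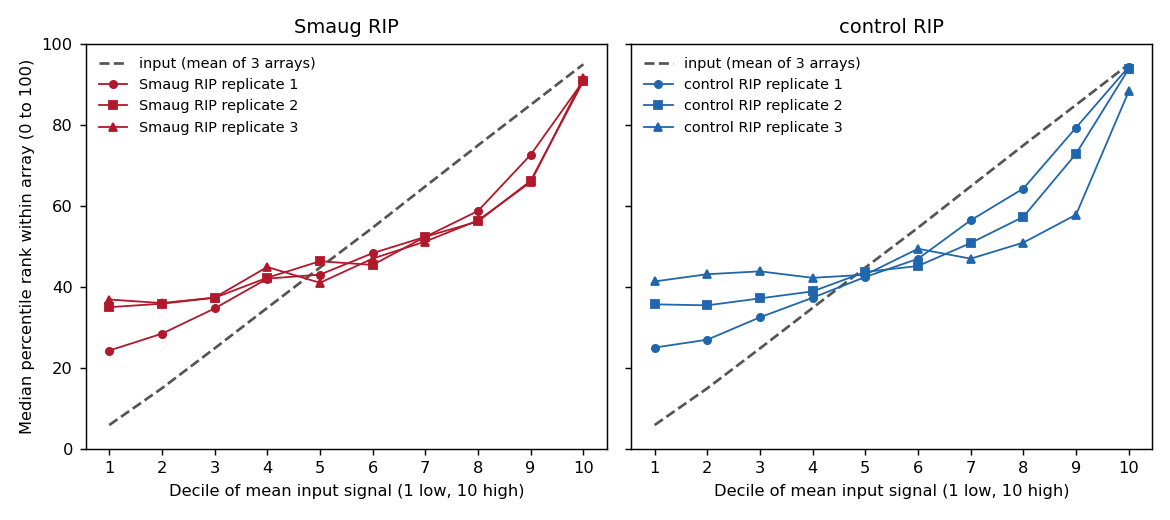
Median percentile rank within the array (vertical axis, 0 to 100) for each decile of mean input signal (horizontal axis, from low to high), with 1 line per biological replicate of the Smaug RIP (left) and control RIP (right) and a dashed line for the mean of the 3 inputs. All 3 Smaug RIP lines stay between 24.3 and 58.8 over the 8 lower deciles and reach 90.8 to 91.5 in the most abundant one.

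Replicate 1 kept more of the input order at low abundance than replicates 2 and 3 did. Its least abundant decile had a median rank of 24.3, against 35.0 in replicate 2 and 36.9 in replicate 3. The Spearman correlation with the mean input across the 7716 transcripts was 0.618 in replicate 1, 0.400 in replicate 2 and 0.389 in replicate 3. These are correlations across transcripts, which are not independent replicates. Before averaging, array 1a had a Spearman correlation of 0.639 and array 1b one of 0.503, although they measured the same RNA with the same dye. The gap between those technical replicates exceeded that between biological replicates 2 and 3. Smaug RIP 2 had a Spearman correlation of 0.435 with input 1, the input placed on its own array, and of 0.376 and 0.377 with inputs 2 and 3. Smaug RIP 3, on another slide, had 0.395, 0.381 and 0.379 with the same inputs.

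The signals themselves showed the same shape. From the least abundant to the 8th decile, the median log2 signal rose by 1.10 on Smaug RIP array 1a, 0.71 on 1b, 0.41 on array 2 and 0.38 on array 3. Over the same range it rose by 3.47 to 3.53 on the input arrays. From the 8th to the most abundant decile, the Smaug RIP arrays gained a further 1.45 to 1.81 and the input arrays 2.00 to 2.02. On every Smaug RIP array the larger portion of the rise therefore fell within the upper end, while on the input arrays it lay below. Median log2 signals of all 15433 transcripts ran from 7.27 to 7.33 for Smaug RIPs and from 6.99 to 7.03 for inputs, with interquartile ranges of 0.90 to 1.12 and 3.20 to 3.36. This difference in spread is the reason for working with ranks. In the 3 least abundant deciles, median log2 signals were 7.28, 7.29 and 7.32 on Smaug RIP array 2. On array 3 they were 7.29, 7.28 and 7.30. The medians of all 15433 transcripts on these 2 arrays were close by, at 7.32 and 7.33. Over the same deciles the median rose from 7.17 to 7.54 on array 1a and from 7.20 to 7.39 on array 1b. How far such signals stand above background was not tested.

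Single transcripts scattered widely about these medians. The plot of Smaug RIP rank against input rank shows a dense corner at the top right and a broad cloud elsewhere.

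**Figure D2:**
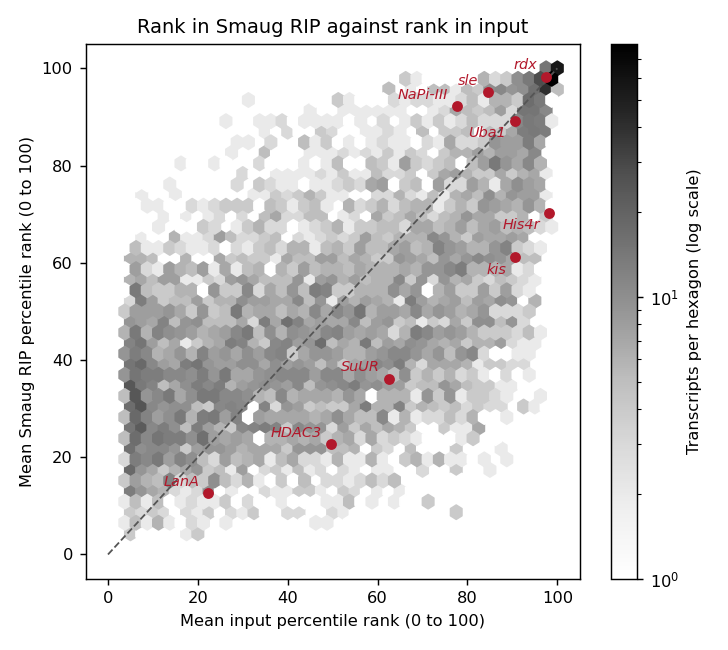
Mean percentile rank over the 3 Smaug RIP replicates (vertical axis, 0 to 100) against mean input percentile rank (horizontal axis, 0 to 100) for the 7716 transcripts, as transcripts per hexagon on a log grey scale, with 9 named transcripts as red points and the line of equal rank dashed. Transcripts such as rdx, at an input rank of 97.5, lie in the dense corner, while His4r, at 98.1, lies well below the line.

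Of the most abundant decile, 52.3% to 56.5% of transcripts were also within the top decile of a Smaug RIP array, and 1.81% to 11.5% lay below the array's median. The lowest of the latter shares was on array 1a and the highest on array 2. In all 3 Smaug RIP replicates at once, 316 of the 772 transcripts (40.9%) stood above percentile 90. By the same rule in the 3 control RIPs, the count was 295 of the 772 (38.2%). Only 5 of the 772 (0.648%) were below percentile 50 in all 3 Smaug RIPs, and those 5 had median control RIP ranks of 75.5, 79.1 and 67.01 in control replicates 1, 2 and 3. For 3 of these 5, every Smaug RIP rank was below every control RIP rank, as in 6.99% of all 7716 transcripts. Since the 5 were picked for low Smaug RIP ranks, that is a description and carries no test.

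At the other end, 8 of the 3858 transcripts in the 5 lower deciles of input ranked above percentile 90 in all 3 Smaug RIPs, and none did so in all 3 control RIPs. Their Smaug RIP ranks ran from 90.1 to 96.3 and their input ranks from 18.5 to 46.0. Their control RIP medians were 60.0, 70.6 and 66.98, with single values between 32.1 and 90.2. All 8 were measured by 5 probes. In all 8 every Smaug RIP rank lay above every control RIP rank, as in 8.4% of all 7716 transcripts. The choice of the 8 by high Smaug RIP ranks favours that order. Much more often, transcripts of those deciles remained low, and 1367 of the 3858 (35.4%) were below percentile 50 in all 3 Smaug RIPs. The control RIP count by the same rule was 1274 (33.02%).

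Read from the side of the RIP, the 771 highest-ranked transcripts of each Smaug RIP replicate came in similar shares from each level of input. The most abundant decile supplied 57.1%, 52.4% and 54.7% of them in replicates 1, 2 and 3. The next decile supplied 16.7%, 16.1% and 16.6%, and the 8th 8.69%, 9.73% and 9.34%. The least abundant decile supplied 0.130%, 1.17% and 1.04%. The 3 Smaug RIPs thus differed from each other by less than 5 points in each of these shares. The control RIPs were less alike, with 73.7%, 62.4% and 45.9% of their highest-ranked transcripts from the most abundant decile.

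**Figure D3:**
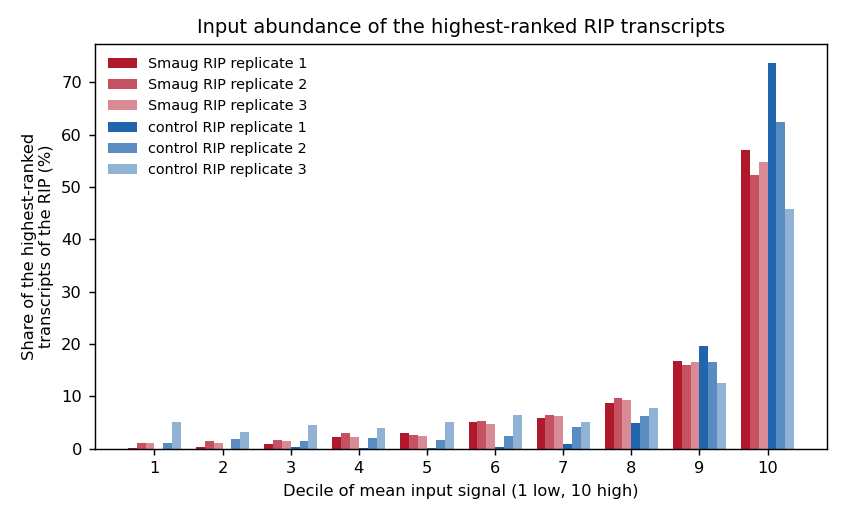
Share in % (vertical axis, from 0) of the 771 highest-ranked transcripts of each RIP replicate that came from each decile of mean input signal (horizontal axis), with red bars for Smaug RIP replicates and blue bars for control RIP replicates. The 3 red bars of the most abundant decile stand at 52.4 to 57.1 and the 3 blue ones at 45.9 to 73.7.

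Transcripts that did not pass the input filter give a further measure of RIP signal without input signal. Ranked among all 15433, the top decile of Smaug RIP array 1a held 1.49% of such transcripts and that of array 1b 2.40%. The shares were 10.7% on array 2 and 12.4% on array 3. On control RIP arrays they ran from 1.17% to 30.6%. Replicate 1 therefore had the fewest high signals from transcripts low in input on both of its arrays, and also the highest correlation with input.

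The 2 measures of recovery that were tested did not set the Smaug RIPs apart from the control RIPs. The Spearman correlation with the mean input was 0.712, 0.441 and 0.257 in control replicates 1, 2 and 3, giving a mean of 0.470 ± 0.229 (SD, n = 3) beside 0.469 ± 0.129 (SD, n = 3) for the Smaug RIPs. The difference of -0.0016 was far inside the spread between replicates (two-sided exact permutation test, p = 1). The most abundant decile had median ranks of 94.4, 93.9 and 88.3 in the control RIPs, and the Smaug RIPs lay 1.12 points lower on average (two-sided exact permutation test, p = 0.6). Adjusted over these 2 tests by the Benjamini-Hochberg method, both exact permutation p-values were 1, and 3 samples against 3 cannot give less than 0.1. In both RIPs replicate 1 had the highest correlation with input and replicate 3 the lowest. Control replicates 1b and 3 carried Cy3 and 1a and 2 carried Cy5, and the part of the dye was not tested.

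Agreement between replicates was also read within each decile, where input abundance is nearly constant. Within the least abundant decile, Pearson's r of the ranks between Smaug RIP replicates across the transcripts was 0.225, 0.129 and 0.108 for the pairs 1 with 2, 1 with 3 and 2 with 3. It was 0.494, 0.424 and 0.284 in the 6th decile, and 0.722, 0.676 and 0.567 in the most abundant one. Between control RIP replicates, the same pairs gave 0.220, 0.138 and 0.146 in the 6th decile and 0.608, 0.473 and 0.419 in the most abundant one. Within the most abundant decile, mean input log2 signals still ran from 11.693 to 15.974, and pairs of input arrays gave 0.903 to 0.953. The order of abundance is thus still present in that decile, and its part in the RIP values there was not tested. The points within a decile share the arrays and the quantile normalization, and these correlations are a description with no test.

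**Figure D4:**
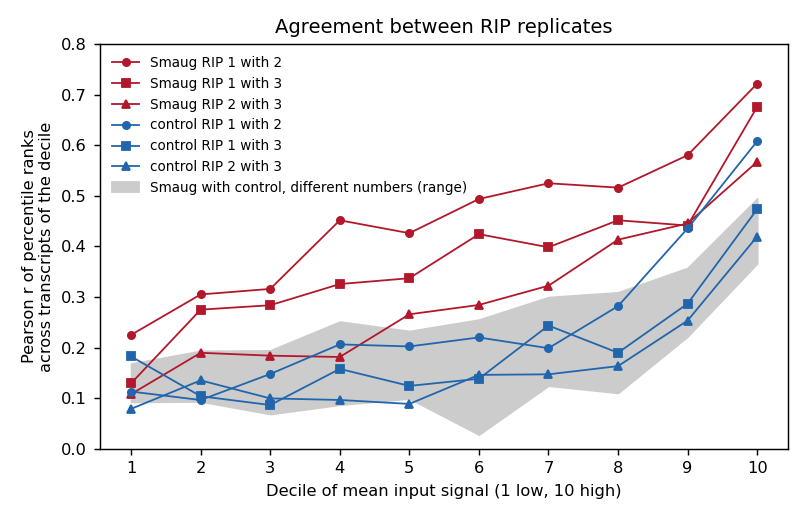
Pearson's r of percentile ranks between replicates across the 771 or 772 transcripts of each decile of mean input signal (vertical axis, r from 0 to 0.8, with the deciles on the horizontal axis), in red for Smaug RIP pairs, in blue for control RIP pairs and in grey for the range of Smaug with control pairs of different number. From the 5th decile to the 9th, every Smaug RIP pair lies above every control RIP pair, the lowest Smaug RIP values there being 0.266, 0.284, 0.322, 0.413 and 0.441.

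The mean r over the 4th to the 9th decile gives each pair of arrays a single value. The 5 pairs of Smaug RIP arrays from different replicates had values from 0.319 to 0.450. The 5 such control RIP pairs had values from 0.124 to 0.226, and the 2 ranges did not overlap. A Smaug RIP and a control RIP of different number gave 0.122 to 0.277 over 10 pairs, and 0.127 to 0.192 over the 5 of those in which both carried Cy5. The single pair of control RIPs from different replicates that both carried Cy5 stood at 0.203. The single such pair in Cy3 stood at 0.194, and the 3 control RIP pairs of mixed dye at 0.124, 0.149 and 0.226. The part of the dye in these values was not tested. A Smaug RIP and a control RIP of the same number, which share a slide by image name, gave 0.147 to 0.409 over 6 pairs. The upper end of that range lies inside the range of the Smaug RIP pairs.

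The spread of single ranks was widest at low input and narrowest in the most abundant decile. The median SD of a transcript's rank over the 3 Smaug RIPs was 18.8 points in the least abundant decile, 16.4 in the 6th, 14.3 in the 9th and 4.09 in the most abundant one. Over the 3 input arrays it was between 0.358 and 6.24 in every decile. Transcripts with 1 probe (173) had a median SD of 19.9 points between Smaug RIPs, and those with 5 probes (4521) one of 15.8. With a spread of 14 to 19 points, 3 replicates measure the rank of a single moderately expressed transcript loosely.

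Transcript by transcript, the mean of the 3 Smaug RIP ranks was first compared with the mean input rank. No transcript was called higher and none lower with limma at a Benjamini-Hochberg adjusted p under 0.05 (0 of 7716, 0%, in each direction), and the smallest adjusted p was 0.0583. At an unadjusted p under 0.05, 1103 of the 7716 transcripts were higher and 1285 lower. With the 3 input arrays taken as separate samples, which the conflicting sources leave possible, limma called 560 of the 7716 higher and 671 lower. The outcome also depended on the scale of the ranks. When ranks were turned into normal scores, which stretch the 2 ends of the scale, limma called 541 transcripts higher (7.01%) and 790 lower (10.2%). By range alone, all 3 Smaug RIP ranks were above all 3 input ranks for 1647 transcripts (21.3%) and below them for 1811 (23.5%). Of the higher calls on normal scores, 198 were in the least abundant decile and 25 in the most abundant, and of the lower ones 0 and 254. A rank is bounded, and a low one can mostly rise and a high one mostly fall.

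Each transcript was therefore also set against those of like input, as the difference of its rank from the median rank, in the same array, of the transcripts in the same bin of input (20 equal bins). limma on these differences again called 0 transcripts higher and 0 lower (0%), with a smallest adjusted p of 0.0737. At an unadjusted p under 0.05, 952 of the 7716 were higher and 870 lower. On normal scores, limma called 397 higher (5.15%) and 289 lower (3.75%). The higher and lower calls now both concentrated at the upper end, with 122 and 136 in the most abundant decile, 91 and 65 in the next, and 1 and 3 in the least abundant. All 3 Smaug RIPs were above the median of like input for 1743 transcripts (22.6%) and below it for 1714 (22.2%). Differences ranged from -29.8 points at the 5th percentile of transcripts to 31.5 at the 95th.

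Against the control RIPs, the 2-group fit with limma called 0 transcripts higher and 0 lower (0%), with a smallest adjusted p of 0.368. At an unadjusted p under 0.05, 349 of the 7716 were higher and 308 lower, and normal scores also gave 0 and 0. All 3 Smaug RIP ranks stood above all 3 control RIP ranks for 648 transcripts (8.4%) and below them for 539 (6.99%). The ranks discard the sizes of the signals, so this test answers a narrower question than one on log2 signals. The study compared log2 ratios of RIP to input between the RIPs by another method, and reported mRNAs enriched in the Smaug RIPs. An adjusted p above the threshold here does not show that ranks were equal.

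None of the 16 transcripts with a gene name was called on percentile ranks. On normal scores, limma called His4r lower than both input and like input, and sle and NaPi-III higher than like input. The counts that follow have the share over all 7716 transcripts in brackets. All 3 Smaug RIP ranks were above all 3 inputs for 4 of the 16 (21.3%) and below them for 4 (23.5%). They were above the median of like input for 6 (22.6%) and below it for 5 (22.2%). They were above all controls for 3 (8.4%) and below them for 3 (6.99%). These 16 were named because the reference table pairs them with a gene, so they form no functional group. They are ordered here by what their products do.

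A pair of them belong to the ubiquitin system. The product of rdx (roadkill, FBtr0082871) is an adaptor that presents substrates to a Cullin 3 ubiquitin ligase. It ranked at 97.4, 97.6 and 97.6 on the 3 input arrays and at 98.5, 98.1 and 98.3 in Smaug RIP replicates 1, 2 and 3. All 3 Smaug RIPs were above all 3 inputs, by a mean of only 0.75 points (SE 1.11, limma adjusted p = 0.660). In the control RIPs it ranked at 95.0, 96.4 and 93.8, lower than in any Smaug RIP. Uba1 (FBtr0088499) encodes the enzyme that activates ubiquitin, and the study lists its mRNA among those bound by Smaug. It had a mean input rank of 90.5 and Smaug RIP ranks of 89.5, 82.9 and 95.2, on both sides of the input. Its control RIP ranks of 65.5, 72.3 and 76.6 lay below all of these, and the difference between the RIPs was 17.7 points (SE 4.92, limma adjusted p = 0.476).

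His4r (FBtr0082962) encodes a histone H4 from outside the tandem histone repeats. Its mean input rank was 98.1, and its Smaug RIP ranks were 74.7, 79.6 and 56.7, all below the 3 inputs. Transcripts of like input had a median of 96.6 in the Smaug RIPs. The difference from them was -26.3 points (SE 4.88, limma adjusted p = 0.0767), or an adjusted p of 0.00577 with limma on normal scores. In the control RIPs it ranked at 81.7, 88.5 and 83.0, also below the inputs and above every Smaug RIP. Histone H4 is encoded by many near-identical gene copies, so its probes may also read other copies and the value is uncertain.

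Another 3 encode chromatin proteins, and none of them was called. HDAC3, a histone deacetylase, had a mean input rank of 49.7 and Smaug RIP ranks of 29.4, 20.6 and 18.3. SuUR, which slows replication of heterochromatin, had 62.6 and then 43.9, 39.8 and 24.8. Its Smaug RIP replicate 1 averaged array 1a at 64.1 and array 1b at 23.8. The chromatin remodeller kis had an input rank of 90.6 and Smaug RIP ranks of 72.1, 25.2 and 86.0, and its control RIP ranks of 77.3, 13.7 and 77.7 were likewise lowest in replicate 2, on the slide of the low Smaug RIP value. Control RIP ranks were 46.3, 54.1 and 13.8 for HDAC3 and 56.4, 44.4 and 73.5 for SuUR.

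A pair of transcripts ranked high in every Smaug RIP from a middling to high input. The first, sle (slender lobes, FBtr0082231), encodes a nucleolar protein. From a mean input rank of 84.5 it stood at 94.1, 96.2 and 95.0 in the Smaug RIPs, above all 3 inputs. That was 29.6 points above transcripts of like input (SE 4.09, limma adjusted p = 0.0737), and limma on normal scores gave an adjusted p of 0.0115. Its control RIP ranks of 42.2, 73.9 and 97.8 overlapped with those of the Smaug RIPs. Control replicate 1 averaged array 1a at 2.56 and array 1b at 81.8, and sle was measured by 3 probes. The second, NaPi-III, a member of the phosphate transporter family, had an input rank of 77.7, Smaug RIP ranks of 94.4, 94.9 and 87.2 and control RIP ranks of 69.4, 83.0 and 73.6, and lay 33.8 points above like input (SE 5.45, limma adjusted p = 0.0737, and 0.0207 on normal scores).

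mio and Wdr24 both encode subunits of the GATOR2 complex, which acts in nutrient sensing through TOR. At a mean input rank of 20.5, mio had Smaug RIP ranks of 53.0, 20.7 and 13.3. Its Smaug RIP replicate 1 averaged array 1a at 28.1 and array 1b at 78.0. Wdr24, at an input rank of 49.9, had Smaug RIP ranks of 73.7, 46.9 and 69.7, all above the median of like input, by 17.1 points on average (SE 9.31, limma adjusted p = 0.344). The other structural and metabolic transcripts were of low or middle input. LanA, a laminin chain of basement membranes, went from an input rank of 22.3 to 5.85, 26.1 and 6.07. alpha-Spec, a subunit of the spectrin membrane skeleton, ranked at 46.6 in the input and at 56.3, 68.7 and 1.29 in the Smaug RIPs, the widest scatter of the 16 along with CG16974 (49.8 in the input, then 19.1, 5.13 and 75.8). Fatp1, a fatty acid transport protein, ranked at 5.51 in the input and above it at 18.7, 15.3 and 49.1 in the Smaug RIPs, while its difference from like input was -4.42 points (SE 10.5, limma adjusted p = 0.840). The kinase Dyrk3 went from 37.0 to 31.9, 16.3 and 36.3, and fend from 67.5 to 72.0, 86.9 and 61.5.

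**Figure D5:**
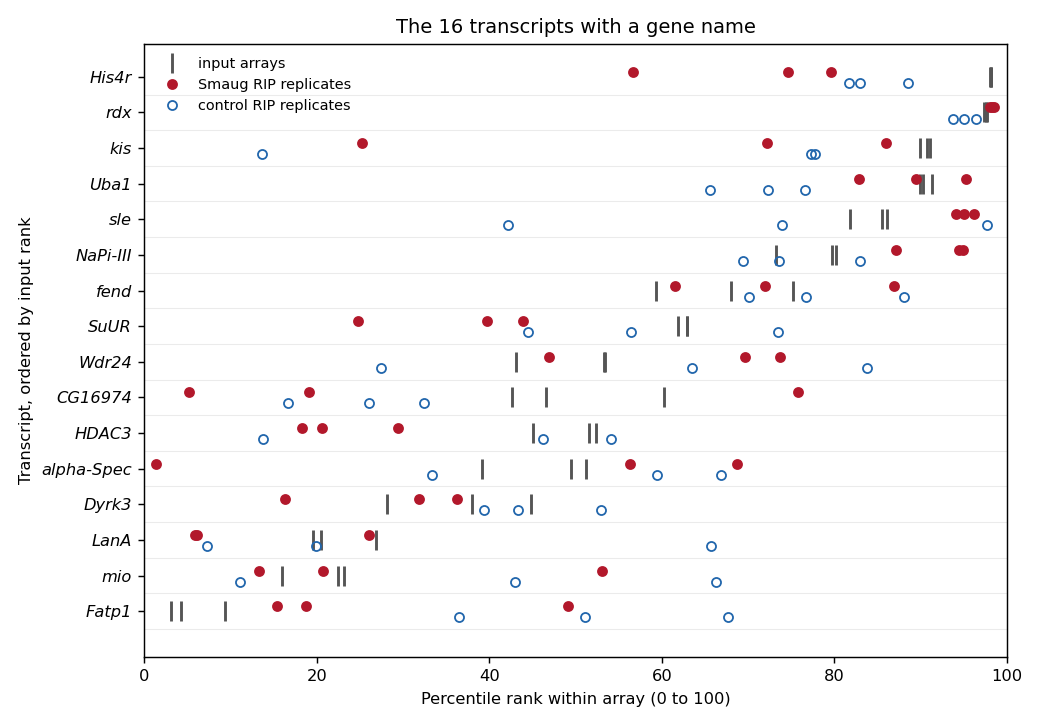
Percentile rank within the array (horizontal axis, 0 to 100) of the 16 transcripts with a gene name (vertical axis, ordered by input rank), with grey ticks for the 3 input arrays, red points for the 3 Smaug RIP replicates and open blue points for the 3 control RIP replicates. The red points of rdx lie between 98.1 and 98.5 and those of His4r between 56.7 and 79.6, while those of alpha-Spec run from 1.29 to 68.7.

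To show what the largest departures from like input look like, 4 further transcripts were chosen after their values were seen, from the calls on normal scores, and their values are a description. FBtr0070670 had input ranks of 9.65, 27.7 and 18.1 and Smaug RIP ranks of 94.9, 94.8 and 92.4, with control RIP ranks of 42.8, 79.1 and 83.0. FBtr0073409 had a mean input rank of 24.0 and stood at 93.3, 88.0 and 94.6 in the Smaug RIPs, and at 16.4, 65.5 and 69.8 in the control RIPs. In both, every Smaug RIP rank was above every input and every control RIP rank. In the other direction, FBtr0079955, with a mean input rank of 89.7, stood at 31.0, 3.40 and 6.23 in the Smaug RIPs and at 86.1, 63.4 and 88.7 in the control RIPs. Its 2 arrays of replicate 1 read 9.39 and 52.7. FBtr0080051, at 96.3 in the input, stood at 60.6, 22.0 and 8.85 in the Smaug RIPs and at 89.0, 73.3 and 54.8 in the control RIPs, so that the 2 RIPs overlapped.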

How the data were processed

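RNA was primed with anchored oligo(dT), labelled and hybridized to NimbleGen arrays by the authors, who summarized and normalized the signals by RMA with quantile normalization. Input signals were deposited by the authors as log2 values and RIP signals as linear intensities, of which the log2 was taken here. The deposited number of probes per transcript was also used. The sources used here do not give a joint normalization of input and RIP arrays, or a version or annotation. The table of the whole series was not used here. The precision is limited by the number of arrays, since no counts were used.

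The members and lists were chosen with earlier results of these data known. Percentile ranks within arrays, over 7716 of 15433 transcripts, were tested with limma 3.58.1 in R 4.3.3 (lmFit, and eBayes with the input rank as trend), against the mean input, against the median of like input (20 bins) or between RIPs, with Benjamini-Hochberg adjustment and calls at an adjusted p under 0.05. The tests against input or like input take the input as fixed and leave out its spread. The scripts were tested on simulated data. Smaller simulated shifts in rank were hardly recovered with 3 replicates, and the shifts were then made larger, so a count of 0 calls on percentile ranks says little about shifts of small or moderate size. Python 3.11.15 with pandas 2.3.3 and scipy 1.17.1 did the rest. The rule for named genes took every transcript tested that the RefSeq table (Release 6) pairs with a single symbol, together with the 2 identifiers most above and the 2 most below like input among those called. As nothing was called, those 4 were taken from the calls on normal scores instead. Of 44 identifiers found in the table, 17 had a single gene and 16 passed the filter, so that the lists of genes planned were not applied. Alternatives changed the scale, filter, bins, inputs, dye, technical replicates, block and replicates used. Leaving out array 1a or 1b, leaving out input 1 with Smaug RIP 2, and taking 1a and 1b apart for the recovery were chosen after seeing the data.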

Additional observations from a re-analysis of the deposited data

Results flagged for a closer look

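For 2 of the 16 named transcripts, every Smaug RIP replicate moved one way from the mean input rank and every control RIP replicate the other way. The share over all transcripts tested was not counted, so it cannot be said whether 2 of 16 is many. The mean difference of rdx was 0.747 points in the Smaug RIPs and -2.46 points in the control RIPs. That of Dyrk3 was -8.83 points in the Smaug RIPs and 8.17 points in the control RIPs. The 3 input arrays themselves ranked Dyrk3 at 38.0, 44.9 and 28.1. Replicates 1 and 3 of both RIPs lay inside that range. Control RIP replicate 1 of Dyrk3 averaged array 1a at 27.9, below all 3 inputs, and array 1b at 58.6, above them. Leaving out single Smaug RIP or input replicates moved the Smaug RIP value of Dyrk3 between -13.3 and -2.91 points, the latter without Smaug RIP replicate 2, and that of rdx between 0.635 and 0.855. The difference between the RIPs in these departures from input was not tested as such. The direct comparison of the RIPs with limma gave adjusted p-values of 0.727 for rdx and 0.697 for Dyrk3. With 3 replicates per group, no single replicate was tested as an outlier.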

How the results depend on the processing

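Of 124 alternatives for the counts of calls and the measures of recovery, 101 stayed within 1.5 times the count or 1 SD of the value. The main counts of calls were all 0, so a count that stayed was again 0. Few replicates alone can give that outcome, so the counts that stayed do not measure stability. The main counts of 0 higher and 0 lower against input became 541 and 790 on normal scores. With a filter at the 67th percentile of input, they became 264 and 270 of the 5093 transcripts tested. They became 577 and 634 with 1a and 1b as separate samples, and 560 and 671 with the 3 input arrays as samples. On log2 values after quantile normalization of all arrays they became 1007 and 1130, and without array 1b there was 1 lower. Against like input, they became 397 and 289 on normal scores, 268 and 99 with that filter, 583 and 294 with 1a and 1b separate, 1 lower with 10 input bins, and 1 lower without array 1b. Arrays 1a and 1b, and the inputs by their labels, are not independent samples. Without Smaug RIP replicate 3, 34 transcripts were lower than like input, and leaving out single replicates gave 0 to 34. Against the control RIPs, the count became 1 higher with Cy5 arrays only. The median rank of the most abundant decile was 92.6 with the filter at the 67th percentile and 89.5 with no filter. The cause was not tested for any of these.

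Like-numbered Smaug and control RIPs deviated from their group means with correlations of 0.191, 0.0499 and 0.153, and Smaug RIPs and inputs with -0.134, -0.120 and 0.0284, so that the numbers were not taken as pairs, although each Smaug RIP correlated best with the control RIP of its own number. With the replicate number as a block, limma called 0 higher and 0 lower against control RIPs (349 and 326 at an unadjusted p under 0.05) and 0 and 0 against input (954 and 1226).

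Of 985 alternatives for the 20 named transcripts, 901 kept direction and side of the threshold, 53 passed the threshold and 31 turned direction, all 31 without a call. In points, leaving out single replicates moved the difference from input between -0.747 and 11.97 for fend, -17.8 and 15.9 for alpha-Spec, -3.47 and 16.4 for mio and -4.34 and 1.82 for Uba1. It moved that from like input between -14.1 and 17.2 for alpha-Spec, -17.2 and 3.20 for mio and -12.5 and 4.18 for Fatp1. It moved that from the control RIPs between -11.5 and 1.18 for fend, -24.5 and 9.27 for alpha-Spec, -25.6 and 2.01 for mio, -16.4 and 22.8 for kis, -12.9 and 22.4 for CG16974 and -10.2 and 18.01 for Wdr24. The other turned values against input were 15.4, 4.06 and 12.5 for alpha-Spec, CG16974 and Dyrk3 with the filter at the 67th percentile, -6.84 for mio with that at the 33rd, -19.4 and -9.22 for mio and Fatp1 with no filter, and, for Uba1, 2.22 without input 1 and Smaug RIP 2 and 0.056 on quantile-normalized log2 values. Against like input they were 1.56 and 2.10 for alpha-Spec and mio with 1a and 1b separate, 3.40 for mio without array 1a, and -1.31 and -2.11 for Uba1 with no filter and with 10 bins. Against control RIPs, mio turned to 0.17 without array 1a.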
